A study of Homo sapiens and Mus musculus with 213 samples.

Results

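The HOX cluster genes are the 39 protein-coding genes of the HOXA, HOXB, HOXC and HOXD clusters, chosen by symbol (HOX, a cluster letter and a number) from the GENCODE annotation of the identifiers in the deposited tables. All 39 were among the 58336 genes listed. Genes whose normalized count averaged 10 or more over the libraries were tested, which kept 38 of the members and 20884 genes in all. RNA-seq of poly(A)-selected RNA was compared between 3 lines of HEK293T, an immortalized cell line from human embryonic kidney, with 3 libraries per line and no treatment. WT cells keep the natural G-quadruplex (G4) motif of the MYC promoter, a G-rich stretch of DNA that can fold into a 4-stranded structure. MUT cells carry mutations in all the G-runs of that motif, and SWP cells carry a G4 motif from another gene in its place. Per the study's methods the edited cells were sorted as single cells and grown as homozygous clones. How many clones stand behind the RNA libraries is not given in the sources used here, so an edit and the clone that carries it cannot be told apart. The labels number the 3 libraries of a line as biological replicates, and whether these were separate cultures is not given in the sources used here, so p-values measure the spread between these libraries.

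HOX genes encode homeodomain transcription factors that give cells their position along the head-to-tail axis of the embryo. The 4 human clusters arose by duplication, so that genes of the same number (paralogs) in different clusters are most alike, and within a cluster low numbers (anterior genes) are used first and nearest the head and high numbers (posterior genes) last and nearest the tail. Kidney tissue comes from the posterior trunk, where HOX11 genes are needed for kidney formation. The clusters also hold long noncoding RNA (lncRNA) genes, such as HOTAIR between HOXC11 and HOXC12, most of them on the strand opposite to the HOX genes.

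The edited gene itself gave a check of the MUT labels, but not of WT against SWP, whose MYC values overlapped. MYC had 20020.3, 28396 and 21580.1 normalized counts in the WT libraries, 10693, 11176 and 12400 in MUT, and 14480.1, 24743 and 25245 in SWP, so that every MUT library lay below every WT and SWP library. The libraries held 65024354 to 98497026 counted reads. The WT column names carry a sequencing pool that the MUT and SWP names lack, so pool and line cannot be told apart when WT is compared with either edited line, whereas MUT and SWP do not differ in this label. Replicate 1 was the highest of its line for 20 of 38 HOX genes in WT, 26 in MUT and 28 in SWP. Over all tested genes replicate 1 was the highest for 37.2%, 35.3% and 39.8% of genes. In the HOXA cluster it was the highest for 9 of 11 genes in WT, 9 in MUT and all 11 in SWP, and the part of this order in the results was not tested beyond leaving out each library. Of the markers of embryonic kidney, EYA1, SALL1 and EMX2 were at means of 519.8 to 2594 normalized counts in WT, while PAX8 was at 0.342.

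Genes of all 4 clusters and of every paralog number had counts in all 3 lines. Of the 39 members, 23 had a mean of at least 1000 normalized counts over the 9 libraries, 12 lay between 50 and 1000, and HOXC5, HOXC12 and HOXD12 lay between 10 and 50. HOXB1, a gene of the embryonic hindbrain, had 1 read in MUT replicate 1 and 0 in the other 8 libraries, where a count of 0 allows up to 3 reads, and was not tested. Levels are compared between genes as normalized counts per kb of exon. The posterior genes (paralogs 9 to 13) held 63.9% ± 0.265 percentage points (SD, n = 3) of the summed level per kb of all members in WT, the central genes (4 to 8) 31.5% ± 0.402 and the anterior genes (1 to 3) 4.63% ± 0.229. In MUT the posterior share was 62.3% ± 0.316 and in SWP 63.4% ± 1.04.

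Per kb of exon, the highest member of a cluster was the same in all 3 lines, except in cluster C. HOXB9, a posterior gene of the trunk, was first of all members in every line, with 16843, 18849.5 and 19288 normalized counts in WT, 17346, 16205 and 17006 in MUT and 15417, 15720.1 and 16126 in SWP. Its WT mean of 7087 ± 504 (SD, n = 3) per kb of exon was above 97.5% of tested protein-coding genes. HOXD13, which patterns the digits, led its cluster with 11506, 8429.7 and 9242 in WT, 8996, 7655 and 7992 in MUT and 9045, 6735 and 7149 in SWP. HOXA5, known from lung development, led cluster A with 6762, 5472 and 6089 in WT, 7291, 5837 and 5898 in MUT and 7741, 5053 and 5323 in SWP. Per kb of exon in WT, HOXD13 (4026 ± 659.9, SD, n = 3) and HOXA5 (3551 ± 375) stood next to HOXB9, and the spreads of their WT means overlapped. Within libraries the order was steady, with HOXD13 above HOXA5 in every WT library and below it in every MUT and SWP library. HOXA10 (2417 ± 388 per kb) and HOXA9 (2376 ± 162), both known from blood and reproductive tract, followed and lay within their spread of each other in WT. In cluster C the highest level per kb was that of HOXC4 in WT (1335 ± 103) and SWP (1106 ± 26.9), and that of HOXC10 in MUT (1265 ± 65.9, against 1189.9 ± 30.3 for HOXC4).

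The lowest tested members in WT were the group 12 genes, HOXC5 and 3 HOXD genes of low paralog number. HOXC12 stood at 7.40 ± 0.444 (SD, n = 3) normalized counts per kb in WT, HOXD12 at 7.42 ± 1.16, HOXD3 at 17.2 ± 4.33, HOXC5 at 18.8 ± 6.33, HOXD1 at 39.2 ± 5.69 and HOXD4 at 59.2 ± 14. HOXC12 and HOXD12 did not differ beyond their spread, nor did HOXD3 and HOXC5. Cluster A held 36.0% ± 1.63 of the summed level per kb in WT, cluster B 34.7% ± 2.54, cluster D 17.3% ± 1.21 and cluster C 12% ± 0.259.

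The comparison of MUT with WT asks how the HOX genes stand when the G4 motif is mutated. Of 38 tested members, HOXA4 was higher in MUT and HOXC11 and HOXC12 were lower, at a limma adjusted p under 0.05 over all tested genes and a log2 fold change beyond 0.5, the call used throughout. Of all tested genes 21.4% were called in this comparison, 11.3% higher and 10.1% lower, so the 3 members called are a smaller share than that background. HOXC12, which this count includes, passed the minimum mean only through WT and SWP, so its call is given as a description. Of all calls 52.8% were higher in MUT, and 64.2% when values were rescaled to equal totals, a setting in which HOXC10 was also called. The median log2 fold change was 0.05 over the members and -0.0034 over all tested genes. The 35 members not called lay between -0.41 (HOXA13) and 0.59 (HOXC5) on the log2 scale. Libraries of MUT and WT did not overlap for 15 of 38 members, against 52.3% of all tested genes. The summed level of all members per kb in MUT was 99.7% of that in WT, with overlapping libraries. RNA was taken from whole cultures, in which fewer cells making a transcript and less RNA per cell cannot be told apart.

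**Figure D1:**
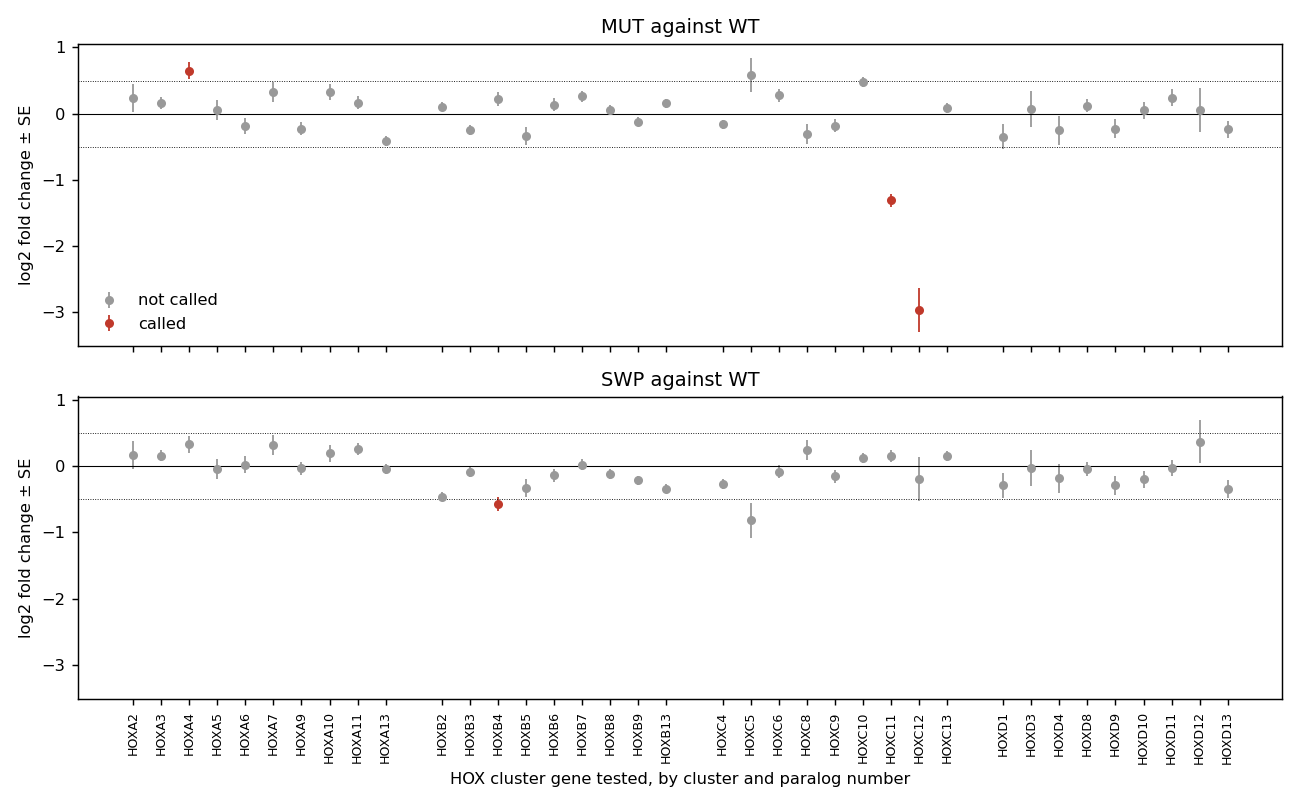
Log2 fold change of 37 tested HOX cluster genes on the log2(normalized count + 1) scale, in MUT against WT (top) and SWP against WT (bottom), with bars of 1 standard error and dotted lines at 0.5 and -0.5; red marks genes called. HOXC11 and HOXC12 stand apart in MUT at -1.31 and -2.97, and in SWP the same genes lie at 0.16 and -0.20.

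HOXC11, a posterior gene and a member of the kidney paralog group 11, was lower in MUT. It lies on chromosome 12 from 53973126 to 53977643 of hg38, on the plus strand, and its exons overlap those of no other listed gene. Its normalized counts were 929.7, 879 and 959.8 in WT, 373, 401 and 341 in MUT and 1087, 964 and 1038 in SWP. All MUT libraries lay far below both other lines, and all SWP libraries above WT. The mean was 923 ± 40.9 (SD, n = 3) in WT and 372 ± 29.8 in MUT, or 40.3% of WT. The log2 fold change was -1.31 (standard error 0.09, limma adjusted p = 2.67e-06). The exact two-sided permutation test gave p = 0.1, the smallest that 3 libraries against 3 allow. In SWP against WT the log2 fold change was 0.16 (limma adjusted p = 0.344).

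HOXC12, the next HOX gene in the direction of HOXC13, was lower still in MUT, at very low counts. It lies on chromosome 12 from 53954903 to 53958956 of hg38, on the plus strand, with a gap of 14.2 kb to HOXC11, and is described here because of its values, since its mean was under 50. Its normalized counts were 23.6, 25.8 and 23.1 in WT, 1.85, 2.92 and 1.95 in MUT and 12.6, 29.7 and 24.2 in SWP, and the MUT values stand for 2, 3 and 2 reads. The 7 reads in MUT against 70 in WT put MUT at 9.26% of WT after scaling, with an exact 95% interval of 3.59 to 20.1% that covers counting error only. HOXC12 passed the minimum mean only through WT and SWP, and its fitted log2 fold change of -2.97 (limma adjusted p = 5.78e-05) became -1.48 with a pseudocount of 10. SWP replicate 1 was low among its line, and SWP and WT overlapped.

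HOTAIR, the lncRNA gene that lies between these 2 genes on the opposite strand, moved with them. HOTAIR RNA has been studied for its association with chromatin-repressing complexes. It lies on chromosome 12 from 53962308 to 53974956 of hg38, on the minus strand, so that its span overlaps that of HOXC11 by 1.83 kb while the exons do not overlap, and the gap to HOXC12 is 3.35 kb. Its normalized counts were 684, 752 and 787 in WT, 157, 207 and 132 in MUT and 761, 817 and 694 in SWP. Every MUT library was far below every WT and SWP library, while WT and SWP overlapped. The log2 fold change in MUT was -2.18 (standard error 0.15, limma adjusted p = 2.29e-06), which is 22.3% of the WT mean, and in SWP it was 0.03 (limma adjusted p = 0.933).

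The HOX genes on either side of this stretch of cluster C were not called lower in MUT. HOXC13, which acts in hair and nails, had 1534, 1316 and 1349.7 normalized counts in WT and 1502, 1444 and 1488 in MUT, and the 2 lines overlapped. HOXC10, the next HOX gene after HOXC11 at a gap of 7.42 kb, had 2239.7, 2022 and 2226 in WT, 2848, 2993 and 3160.1 in MUT and 2427, 2225 and 2399.8 in SWP. All MUT libraries of HOXC10 lay above all WT and SWP libraries, and the log2 fold change was 0.47 (limma adjusted p = 0.000522), just under the threshold of 0.5, which it passed without MUT replicate 1 (0.51). Further along the cluster HOXC9, HOXC8, HOXC6 and HOXC4 were between -0.31 and 0.27 on the log2 scale. HOXC5, of which 67.3% of the exon bases are shared with 2 other annotated genes on the same strand, had 42, 24.7 and 24.1 in WT and 49.0, 44.7 and 39.9 in MUT. The lines overlapped through WT replicate 1, which was high (log2 fold change 0.59, limma adjusted p = 0.097), and without that library the value was 0.84 with a limma adjusted p = 0.02.

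A pair of antisense lncRNA genes at HOXC9 was also lower in MUT. HOXC-AS2 had 152, 209.9 and 188 normalized counts in WT, 72.1, 84.6 and 85.7 in MUT and 154, 191 and 186 in SWP (log2 fold change in MUT -1.16, standard error 0.16, limma adjusted p = 0.000227). HOXC-AS1 had 90.2, 121 and 104.9 in WT, 55.5, 55.4 and 53.6 in MUT and 75.6, 117 and 119 in SWP (-0.92, limma adjusted p = 0.00367). For both, the MUT libraries lay below all others and SWP overlapped WT. HOXC-AS3, between HOXC11 and HOXC10, was at 41.0, 35.9 and 52.0 in WT and 55.5, 61.2 and 57.5 in MUT and did not pass the test (0.44, limma adjusted p = 0.0802). In chromosome order, the 3 neighbours HOXC12, HOTAIR and HOXC11 thus fell in MUT, and the next genes HOXC-AS3 and HOXC10 had positive values. HOXC-AS2 and HOXC-AS1 fell, while HOXC9, whose span both overlap, was at -0.18. The summed level of all 9 HOXC genes per kb was 4415 ± 188 (SD, n = 3) in WT and 4424 ± 57.3 in MUT.

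Protein-coding genes within 500 kb outside cluster C were not called lower with HOXC11. Of 17 tested, 3 were called higher in MUT (MAP3K12, ZNF385A and PDE1B, the last from 121 ± 10.7 to 404 ± 21.8 normalized counts, SD, n = 3) and 0 lower by limma, edgeR or DESeq2 (6 lower at an unadjusted p under 0.05), with a median log2 fold change of 0.01. Around all 4 clusters, 4 of 31 flanking genes were called higher, SKAP2 beside cluster A being the other, and 0 lower by any of these tools (9 at an unadjusted p under 0.05), where 11.3% of all tested genes were higher and 10.1% lower. At a limma adjusted p under 0.05 alone, 6 of 17 genes beside cluster C and 9 of 31 around all clusters were lower. Of all tested genes 19.8% were lower at that threshold, a smaller share. COPZ1 (-0.42, limma adjusted p = 0.00045) was among the 6 beside cluster C. At the same threshold 4 of 17 and 5 of 31 were higher, against 18.6% of all tested genes.

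HOXA4, a central gene of cluster A, was the member that rose in MUT. It lies on chromosome 7 from 27128507 to 27130780 of hg38, on the minus strand. Its normalized counts were 434, 387 and 422 in WT, 676, 642 and 630.3 in MUT and 640.4, 481 and 456 in SWP. All MUT and all SWP libraries lay above all WT libraries, and SWP replicate 1 lay among the MUT values. The log2 fold change was 0.65 in MUT (standard error 0.13, limma adjusted p = 0.00207) and 0.33 in SWP (limma adjusted p = 0.136). Of its exon bases, 31.3% are shared with another annotated gene on the same strand and 16.5% lie opposite HOXA-AS2 or HOXA-AS3. Whether the counting used strand is not given in the sources used here, so reads of HOXA4 and of these antisense genes may not have been kept apart.

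The antisense lncRNA genes of cluster A changed in both directions. HOXA-AS3, which runs opposite HOXA4 to HOXA7, had 386, 381 and 412 normalized counts in WT, 701, 683 and 707 in MUT and 694, 562 and 524 in SWP. It was higher in MUT (0.83, standard error 0.11, limma adjusted p = 0.000182) and in SWP (0.58, standard error 0.11, limma adjusted p = 0.00647), but without SWP replicate 1 the SWP value was 0.46 and not called. HOXA10-AS had 199, 198 and 201 in WT, 322, 303 and 371 in MUT and 315, 220 and 289 in SWP, so both edited lines lay above WT. The log2 fold change was 0.73 in MUT (limma adjusted p = 0.00222) and 0.45 in SWP (limma adjusted p = 0.0763, not called). Its sense partner HOXA10 went from 10313, 7451 and 9114 in WT to 11905, 10882 and 10596 in MUT, and was not called (0.32, limma adjusted p = 0.0613). Of the exon bases of HOXA10-AS, 62.3% lie opposite HOXA10, HOXA9 or MIR196B, and 39.35% of those of HOXA-AS3 lie opposite other genes. The strand limit given for HOXA4 therefore applies to these antisense genes too.

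HOXA11-AS, which starts beside HOXA11 on the opposite strand, split the 2 edited lines. It had 1576, 1371 and 1463 normalized counts in WT, 983, 984 and 1009 in MUT and 2023, 1816 and 1706 in SWP, with no overlap between any of the lines. The log2 fold change was -0.56 in MUT (standard error 0.09, limma adjusted p = 0.000419; with equal totals -0.49, not called) and 0.33 in SWP (limma adjusted p = 0.0322). HOXA11 itself, a kidney paralog, had 4595, 3922 and 3990.3 in WT, 4823, 4485 and 4702 in MUT and 5668, 4576 and 4751 in SWP, and its lines were not called apart. Of the exon bases of HOXA11-AS, 31.9% are shared with other annotated genes on the same strand and 27.7% lie opposite HOXA11 or another gene. The strand limit given for HOXA4 applies to HOXA11-AS and HOXA11 too. HOXA-AS2 was higher in SWP (0.61, limma adjusted p = 0.00918) and had a negative value in MUT (-0.37, limma adjusted p = 0.0347). In cluster D, HAGLR, antisense to HOXD1 and HOXD3, was lower in MUT, from 1161, 1493 and 1243 to 815, 803 and 782 (-0.69, limma adjusted p = 0.0041).

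Over the 18 lncRNA genes of the clusters, 15 were tested, and HOXB-AS2, HOXB-AS4 and HAGLROS had at most a few reads. In MUT 2 were higher and 5 lower (median log2 fold change -0.27), and in SWP 2 were higher and 0 lower (median 0.18). Of all tested genes 11.3% were called higher and 10.1% lower in MUT, and 2.15% higher and 2.98% lower in SWP. By limma HOXB-AS3 was the 1 lncRNA gene lower in SWP at an adjusted or unadjusted p alone (-0.47). Without WT replicate 2 or SWP replicate 1 it was called, and edgeR and DESeq2 called 0 lower there. The developmental lncRNAs HOTAIRM1 (-0.13 in MUT, 0.10 in SWP) and HOTTIP (0.03 and 0.36) were not called.

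Sequences before RefSeq starts are printed for 3 genes of cluster A, because HOXA4 and HOXA-AS3 rose in MUT and because the stretch before HOXA11 also lies over an exon of HOXA11-AS, which had values of opposite sign in MUT and SWP. They come from RefSeq promoter windows on GRCh38, which held 20 of the 39 members, so HOXC11, HOXC12 and HOXB4 are named only. Each run covers bases 250 to 51 before the annotated start and is written 5′ to 3′ on the gene's strand. The RefSeq start of HOXA-AS3 lies inside the GENCODE span of that gene used for the counts, which begins at 27129977, so its run is not upstream of the whole counted gene. Capitals mark CACGTG, the E-box letters that MYC with its partner MAX is known to bind, which read the same on both strands. The windows are chr7:27130808-27131007 (minus strand) for HOXA4, chr7:27146913-27147112 (plus strand) for HOXA-AS3 and chr7:27185283-27185482 (minus strand) for HOXA11.
HOXA4: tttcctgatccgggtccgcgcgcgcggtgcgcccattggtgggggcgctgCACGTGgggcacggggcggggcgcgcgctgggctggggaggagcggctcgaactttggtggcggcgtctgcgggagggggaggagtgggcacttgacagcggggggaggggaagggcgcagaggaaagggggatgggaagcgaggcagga
HOXA-AS3: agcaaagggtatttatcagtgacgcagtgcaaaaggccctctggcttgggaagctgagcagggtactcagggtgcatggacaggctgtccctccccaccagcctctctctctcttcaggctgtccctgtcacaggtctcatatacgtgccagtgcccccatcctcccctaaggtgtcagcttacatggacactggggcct
HOXA11: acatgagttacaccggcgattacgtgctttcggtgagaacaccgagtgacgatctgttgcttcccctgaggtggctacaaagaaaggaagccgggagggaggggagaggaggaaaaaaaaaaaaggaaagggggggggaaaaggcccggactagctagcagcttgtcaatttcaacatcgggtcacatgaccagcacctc

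The HOXA4 window held CACGTG once, and those of HOXA-AS3 and HOXA11 did not hold it. These letters stood in the windows of 5 of the 20 members with an entry (HOXA4, HOXA9, HOXD10, HOXD11 and HOXD13) and in 4.51% of all 35116 windows of this length. Of these 5 genes HOXA4 alone was called in MUT, and the other 4 were between -0.23 and 0.24 on the log2 scale. The HOX and PBX letters TGATTNAT, searched on both strands, stood in the windows of HOXA2 and HOXD11 and in 2.06% of all windows. The CG dinucleotide count was 22 for HOXA4, 9 for HOXA11 and 2 for HOXA-AS3, against a median of 8 over all windows. A match of letters is a description of the sequence and not a measured binding site.

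The comparison of SWP with WT asks how the HOX genes stand when another G4 motif takes the place of the MYC motif. Of 38 tested members 1 was called, HOXB4, which was lower, where 5.13% of all tested genes were called and 2.98% were lower, so 1 of 38 is near that share. The median log2 fold change was -0.04 over the members and -0.06 over all tested genes, and libraries did not overlap for 8 of 38 members, against 24.6% of all tested genes. No member was called higher by limma (2.15% of all tested genes were), nor by edgeR or DESeq2 on the recovered reads, and 2 had positive values at an unadjusted p under 0.05. The replicate numbers paired SWP with WT for replicates 1 and 2, while SWP replicate 3 was closer to WT replicate 2. With the number as a block HOXC5 joined HOXB4, so that 2 members were called lower, where the block called 4.18% of all tested genes lower.

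HOXB4, a central gene known from blood stem cells, had 802, 670.1 and 829.8 normalized counts in WT, 950.3, 845 and 885 in MUT and 558, 495 and 495 in SWP. It lies on chromosome 17 from 48575507 to 48578350 of hg38, on the minus strand. All SWP libraries lay below all WT libraries, and all MUT libraries above them. The log2 fold change in SWP was -0.57 (standard error 0.10, limma adjusted p = 0.00548, exact permutation p = 0.1) and in MUT 0.22 (limma adjusted p = 0.112). HOXC5 had 19.5, 13.4 and 16.1 in SWP, below every WT library, and its log2 fold change was -0.82 (limma adjusted p = 0.0722, and 0.0226 with the replicate block).

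**Figure D2:**
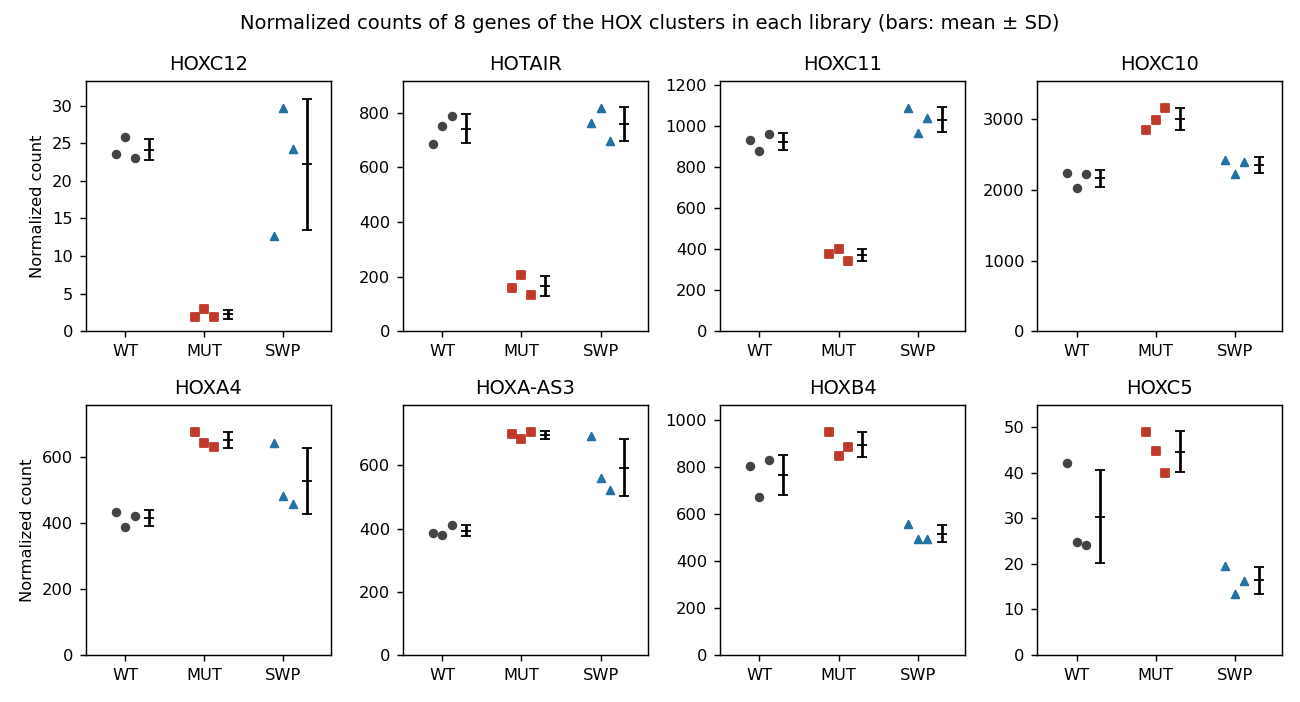
Normalized counts of HOXC12, HOTAIR, HOXC11, HOXC10, HOXA4, HOXA-AS3, HOXB4 and HOXC5 in each library (circles WT, squares MUT, triangles SWP, from replicate 1 to 3), with mean ± SD beside each line and axes that start at 0. MUT is below both other lines for HOXC12, HOTAIR and HOXC11 and above them for HOXC10, and SWP is below both for HOXB4 and HOXC5.

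Other genes of cluster B had smaller negative values in SWP. Of the 9 tested HOXB genes, 8 had a log2 fold change below 0, and HOXB2 (-0.46) and HOXB13 (-0.34) passed the limma adjusted p of 0.05 without reaching the fold threshold, as did HOXC4 (-0.27), which with HOXB4 makes 4 of 38 members against 9.97% of all tested genes. HOXB2 went from 1394, 1473 and 1520.0 in WT to 1051, 1042 and 1092 in SWP, and HOXB13, a gene of the prostate, from 2263, 2143 and 2455 to 1831, 1731 and 1859, with no overlap. The summed level of cluster B per kb in SWP was 86.5% of that in WT, and the libraries did not overlap (exact permutation p = 0.1). Negative values in SWP were not particular to cluster B. In cluster D, 8 of 9 tested genes were also below 0, with a median log2 fold change of -0.18 against -0.22 in cluster B. The summed level of cluster D in SWP was 83.2% of that in WT, with overlapping libraries. The 10 tested genes within 500 kb of cluster B had a median of -0.26 in SWP with 0 called by limma, edgeR or DESeq2 and 6 lower at an unadjusted p under 0.05. In a window chosen after the values were seen, 92 of 111 tested protein-coding genes within 5 Mb had negative values, against 61.0% of all tested genes. The part of this surrounding shift in the HOXB values was not tested. In cluster A, 8 of 11 genes had positive values in SWP, and SWP replicate 1 was the highest of its line for all 11.

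The comparison of MUT with SWP sets the 2 edited lines against each other without the pool label between them. HOXB2, HOXB4 and HOXC5 were higher in MUT than in SWP and HOXC8, HOXC11 and HOXC12 were lower, which is 6 of 38 where 20.6% of all tested genes were called (12.3% higher and 8.31% lower), a smaller share than the background. The 2 sets of 3 libraries did not overlap for 17 of 38 members, against 52.3% of all tested genes. HOXC11 (log2 fold change -1.47, standard error 0.09, limma adjusted p = 7.08e-07) and HOTAIR (-2.21, standard error 0.15, limma adjusted p = 1.21e-06) were lower in MUT by about as much as against WT. HOXC12 in MUT was at 9.56% of SWP, with an exact 95% interval of 3.71 to 20.7%. It passed the minimum mean only through WT and SWP, so its part in the count of 6 is a description. HOXC5 (1.40), HOXB4 (0.79) and HOXB2 (0.57) were higher in MUT with no overlap, and HOXB13 missed the fold threshold at 0.49. HOXC8, a central gene, had 435, 321 and 349.7 in MUT and 642, 457 and 524 in SWP (-0.55, limma adjusted p = 0.0131), and its call was lost without MUT replicate 2 (-0.46) or without SWP replicate 1 (-0.42). Of the lncRNA genes 7 were lower in MUT than in SWP and 0 higher, by limma and by edgeR and DESeq2, and 1 had a positive value at an unadjusted p under 0.05. HAGLR, at -0.50, lost its call when any MUT library, SWP replicate 2 or SWP replicate 3 was left out.

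Summed over paralogs, group 11 (HOXA11, HOXC11 and HOXD11), whose sum per kb was 2479 ± 185 (SD, n = 3) in WT, stood at 2614 ± 127 in MUT and 2816 ± 352 in SWP, with overlapping libraries. HOXC11 was its lowest member in every line. HOXD11 had 1432, 1237 and 1354 normalized counts in WT and 1742, 1455 and 1564 in MUT, where its lines did not overlap but were not called (0.24, limma adjusted p = 0.147). Group 12, the lowest of the 13 groups, stood at 14.8 ± 0.713 per kb in WT and 8.64 ± 2.88 in MUT, with HOXD12 at 20.5, 15.7 and 21.2 normalized counts in WT and 15.7, 16.5 and 29.2 in MUT. Group 10 was at 123% of WT in MUT, group 7 at 121%, group 2 at 109% and group 9 at 90.0%. Libraries of MUT and WT did not overlap for these 4 sums and for group 12, each with an exact permutation p = 0.1, and over 13 groups no adjusted p can pass 0.05. HOXA13 and HOXB3 were lower and HOXB7 and HOXC6 higher in MUT at an adjusted p alone, which 38.4% of all tested genes passed, at log2 fold changes of -0.41, -0.25, 0.26 and 0.27.

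HOX proteins bind DNA with partners of the TALE homeodomain class, and all 9 of these genes were expressed. In MUT, MEIS3 rose from 382 ± 35.5 to 877 ± 67.0 normalized counts (SD, n = 3, log2 fold change 1.2, limma adjusted p = 6.85e-05) and PKNOX2 fell from 1776 ± 126 to 1021 ± 67.9 (-0.80, limma adjusted p = 9.46e-05). These 2 of 9 are near the share of all tested genes called, 21.4%. PBX3 (0.30) and MEIS1 (-0.38) passed the limma adjusted p alone, as 38.4% of all tested genes did. In SWP 0 of the 9 were called by limma, edgeR or DESeq2 and 2 were higher at an unadjusted p under 0.05, with MEIS3 at -0.16 and PKNOX2 at 0.26. By limma 5.13% of all tested genes were called in SWP. Of the linked and ParaHox homeobox genes, MNX1, CDX2 and PDX1 were tested and 0 of 3 were called by limma, edgeR or DESeq2 in any comparison, with 1 higher at an unadjusted p under 0.05 in each edited line against WT. CDX2, which activates posterior HOX genes in the embryo, had 2797 ± 311 in WT, 2538 ± 63.5 in MUT and 2920.4 ± 320.0 in SWP, while CDX1 and CDX4 had 0 reads in all 9 libraries and EVX1 and EVX2, the neighbours of HOXA13 and HOXD13, had means under 10.

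Of the 18 chromatin regulators known to maintain HOX expression or silencing, 0 were called in MUT or in SWP against WT by limma, edgeR or DESeq2. By limma 21.4% of all tested genes were called in MUT and 5.13% in SWP. At an unadjusted p under 0.05, 2 were higher and 4 lower in MUT, and 2 higher and 3 lower in SWP. The Trithorax-group gene KMT2A had 9072 ± 1689 (SD, n = 3) normalized counts in WT and 6812 ± 1054 in MUT (-0.41, limma adjusted p = 0.0396), and the Polycomb gene EZH2 10530.2 ± 891 and 10757 ± 255. At an adjusted p alone, RING1 and KDM6B had positive values in MUT (0.40 and 0.42) and CBX2, PCGF2 and DOT1L negative values (-0.30, -0.41 and -0.37), as did KMT2A. That is 2 higher and 4 lower of 18, where 38.4% of all tested genes passed that threshold. Between MUT and SWP, limma called KDM6B (0.50) and RING1 (0.51) higher in MUT, just past the fold threshold, and KMT2A lower (-0.66). These were 3 of 18, where 20.6% of all tested genes were called, so the share is not above the background. By edgeR and by DESeq2, 0 of the 18 were called higher and 1 lower there. Of the 11 tested genes of the retinoic acid pathway, which induces HOX genes in embryos, CYP26B1 was higher in MUT and CYP26A1 and ALDH1A2 were lower. Of all tested genes 11.3% were called higher in MUT and 10.1% lower. ALDH1A2, which makes retinoic acid, went from 7039 ± 279 to 1171 ± 20.4 (log2 fold change -2.59, limma adjusted p = 2.19e-09). In SWP 0 of the 11 were called by limma, edgeR or DESeq2, with 2 higher and 3 lower at an unadjusted p under 0.05.

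Of 13 tested kidney genes known to act with the HOX11 proteins, 5 were called higher in MUT (PAX2, GDNF, OSR1, LHX1 and FOXD1) and GATA3 was lower, where 11.3% of all tested genes were higher and 10.1% lower, with a median log2 fold change of 0.38 against -0.0034 over all tested genes. Both this count and this median include OSR1, which passed the minimum mean only through the edited lines. They are therefore given as a description. GDNF, a growth factor of the early kidney that HOX11 proteins are known to activate, went from 107 ± 15.5 to 211 ± 15.2 normalized counts (SD, n = 3, log2 fold change 0.98, limma adjusted p = 0.000262), and SIX2, another known target, was at 3951 ± 585 and 3732 ± 81.5 and not called (-0.07). OSR1, a regulator of early kidney, passed the minimum mean only through the edited lines, with 4, 8 and 5 reads in WT, 43, 36 and 32 in MUT and 14, 27 and 19 in SWP, so its calls in MUT and in SWP are given as a description. No other gene of this list was called in SWP by limma, and 4 (OSR1 included) were higher and 1 lower at an unadjusted p under 0.05, while edgeR and DESeq2 each called 1 higher and 0 lower. Markers of other cell types were checked in the same libraries. In MUT the called genes were NES and NEFL (higher) and NEFM (lower) of 6 tested neural markers, COL1A1 (higher) and COL3A1 (lower) of 4 tested fibroblast markers and 0 of 3 tested blood markers (1 higher at an unadjusted p under 0.05 and by edgeR, 0 by DESeq2), and all 4 adrenal cortex markers had means under 10. The summed neural markers ranged from 25175 to 27901 normalized counts in WT, 29452 to 30879 in MUT and 19175 to 24748 in SWP, with the neuronal genes STMN2 and ELAVL4 at means under 2 in every line. Their part in the HOX values was not tested.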

How the data were processed

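Poly(A)-selected RNA was sequenced with a directional kit. Per the submitters' notes and the study's methods, reads were aligned to hg38 with BWA 0.7.17-r2188, duplicates were removed, and gene counts were normalized with DESeq2. The deposited signal values are the authors' counts divided by size factors for 58336 genes, and the counting tool and strand setting are not given in the sources used here. All values came out as whole reads (tolerance 0.01) once the factors were divided out, and totals were 65024354 to 98497026 reads per library. Symbols and exon lengths came from GENCODE release 44 (the study names 42) and promoter windows from RefSeq.

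From these values, log2(normalized count + 1) was fitted over all 9 libraries with limma 3.58.1 (eBayes with a trend, R 4.3.3) for the 20884 genes with a mean of at least 10. P-values were Benjamini-Hochberg adjusted over all of them, and a gene was called past adjusted p 0.05 and a log2 fold change beyond 0.5. A fold change on this scale understates that of low genes. Single values were also compared by exact two-sided permutation. The 6 libraries of MUT and SWP share the WT libraries as control. Simulated counts with 200 changed genes gave 173 recovered and 7 others called for MUT against WT (edgeR 173 and 7, DESeq2 174 and 15). Alternatives were other pseudocounts, minima, scalings, thresholds, no variance trend, a fit to the compared pair of lines, a block for replicate number, each library left out, and, added after the values were seen, edgeR 4.0.16 and DESeq2 1.42.0 on the recovered reads. Deviations over genes of same-numbered libraries had positive correlations in SWP and WT (0.555, 0.403 and 0.102) and in MUT and SWP (0.333, 0.241 and 0.232). In SWP and WT the number held for replicates 1 and 2 only, since SWP replicate 3 was closer to WT replicate 2 (0.263) than to WT replicate 3 (0.102). The blocked value is given in these comparisons if it changes a call. This pairing comes from the values, since the labels state none.

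Per library, values are given for members called against WT with a mean of at least 50, for the highest member per kb in each cluster and line, and for paralog groups. HOXC12, HOXC10, HOXC5, HOXC8, HOXC13, HOXB2, HOXB13, HOXA10 and the lncRNA genes described were chosen after their values were seen. The members and all lists were chosen with earlier results of these data known. Values of 1 member and of 3 other listed genes are not reported here by name or in the plots.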

Additional observations from a re-analysis of the deposited data

How the results depend on the processing

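Over 20 other fits at the same thresholds, the calls against WT of HOXA4, HOXC11 and HOXC12 in MUT and of HOXB4 in SWP were kept wherever the gene was tested, and 0 of 675 recomputed fold changes of named members and lncRNA genes reversed a call. With the adjusted p alone, 4 HOX genes were higher and 4 lower in MUT than in WT, 0 higher and 4 lower in SWP than in WT, and 8 higher and 4 lower in MUT than in SWP. Over all tested genes, in both directions together, that threshold called 8021, 2083 and 7944 in these 3 comparisons. With a log2 fold change beyond 1, which is stricter by construction, the HOX genes called were 0 higher and 2 lower in MUT than in WT (HOXC11 and HOXC12), 0 higher and 0 lower in SWP than in WT, and 1 higher and 2 lower in MUT than in SWP. Over all tested genes, in both directions together, it called 1648, 505 and 1723. The number higher in MUT than in WT was 2 with equal totals and with equal upper quartiles (HOXC10 was added) and 2 with the replicate block (HOXC5 was added). A minimum mean of 50 left 1 lower, because HOXC12 was no longer tested. Leaving out single libraries gave 1 to 2 higher in MUT (HOXC5 without WT replicate 1, HOXC10 without MUT replicate 1). With the replicate block 2 members were lower in SWP, HOXC5 being added, and the block changed no other call of a member or lncRNA gene. MUT and WT libraries of the same number did not all deviate together (correlations 0.328, 0.146 and 0.049). No scaling moved the median of all genes by over 0.1 on the log2 scale. The gene with the fewest reads behind a call is HOXC12, with 7 reads in MUT. It passed the minimum mean only through WT and SWP, so its calls and its part in these counts are a description.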
